A study of Rattus norvegicus with 30 samples.

Results

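The expression of 10 chemokine genes was followed in the rat testis, both as it matures in vivo and as prepubertal testicular tissue is kept in organotypic culture. The 10 genes, Ccl2, Ccl3, Ccl5, Ccl7, Cxcl1, Cxcl2, Cxcl10, Cxcl12, Cxcl16 and Cx3cl1, were chosen by name, with earlier results of these data known. They were found through their Entrez identifiers among the 17322 genes of the expression table. Levels are given in FPKM, that is, fragments scaled to transcript length and to the mapped reads of the library. Levels of different genes are set side by side only as listed, since some genes that every cell uses are listed at 0 in every library. All animals were Wistar Han rats. In vivo testes were taken at 6 ages from 8.5 to 53.5 days postpartum (dpp), with 3 libraries per age and 2 at 14.5 dpp, where the other library holds no value above 0. The ages between were 24.5 dpp, 30.5 dpp and 36.5 dpp, all with 3 libraries. For culture, testes of 8.5 dpp rats were cut into 6 fragments and kept on agarose at 34 °C, in αMEM with knock-out serum replacement, retinol and vitamin E, for 6 (D6), 16 (D16), 22 (D22) or 28 (D28) days, with 3 libraries per time. Each culture library pooled 12 explants from at least 3 males, and the necrotic centre of the explants was removed before RNA extraction. The values therefore describe the remaining outer tissue of pooled fragments, and nothing states whether explants and the 8.5 dpp libraries share animals. The table holds no read counts, so depth is unknown; the steps between low values put the libraries at 0.847 to 1.79 times the median depth.

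Chemokines are small secreted proteins that attract leukocytes through G protein-coupled receptors. Inflammatory chemokines such as Ccl2, Ccl7, Cxcl1 and Cxcl10 are induced by cytokines and by pattern recognition receptors, largely through NF-κB and interferon-regulated factors, whereas Cxcl12 is made by stromal cells of resting tissue. Cx3cl1 and Cxcl16 are unusual in being made as membrane-bound proteins that are released by the proteases Adam10 and Adam17. In the testis, macrophages of the interstitium and Sertoli, Leydig and peritubular cells can all make chemokines, and Cxcl12 is known for guiding germ cells that carry Cxcr4.

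The members fell into 4 patterns. Ccl2, Ccl7, Ccl3, Cxcl1 and Cxcl10 were low at every age in vivo and high at every culture time. Cxcl12 and Cx3cl1 were present at 8.5 dpp, fell with age in vivo and stood above every library of 8.5 dpp in explants. Cxcl16 was present throughout. Ccl5 was lower in culture than in the young testis, and Cxcl2 stayed near 0. For 7 members (Ccl2, Ccl3, Ccl7, Cxcl1, Cxcl10, Cxcl12 and Cx3cl1), all 12 culture libraries lay above all 17 in vivo libraries. The same held for 4.97% of the 12762 genes whose median reached 0.5 FPKM in any group. In bulk tissue, fewer cells that make a transcript and less transcript per cell cannot be told apart.

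**Figure D1:**
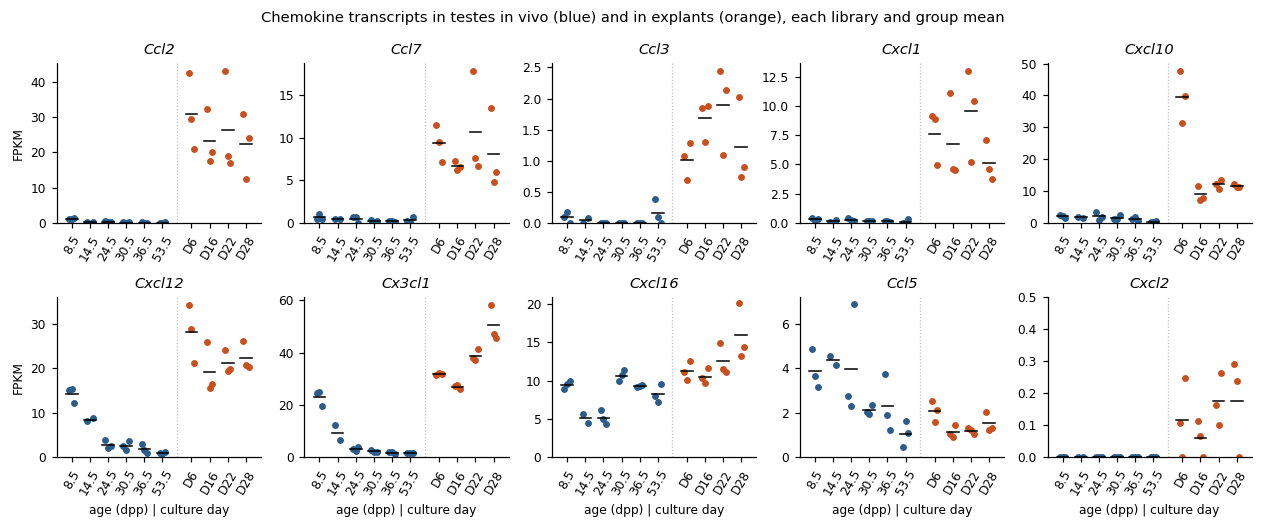
FPKM (linear axis from 0) of each of the 10 chemokine genes in every library, with age in dpp for testes in vivo (blue) and culture day for explants (orange); points are libraries and bars are group means. For 7 members, all 12 orange points lie above all 17 blue ones, whereas Cxcl16 overlaps and Ccl5 lies lower in culture than at 8.5 and 14.5 dpp.

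Ccl2, which attracts monocytes through Ccr2, was low in every testis and high in every explant. At 8.5 dpp, the age of dissection, it stood at 1.10, 1.16 and 1.298 FPKM, and over all 17 in vivo libraries its lowest, median and highest values were 0, 0.239 and 1.298 FPKM. After 6 days of culture it stood at 42.6, 29.5 and 20.8 FPKM. At D28, it was still at 31.0, 12.6 and 24.0 FPKM. The lowest culture library was thus well above the highest testis. Its mean was 26.1 times that of 8.5 dpp at D6 and 19.0 times at D28. On the log2(FPKM + 1) scale, on which all tests were made and which understates changes of low genes, the difference from 8.5 dpp was 3.81 (standard error 0.38, limma adjusted p = 4.16e-06) at D6 and 3.34 (standard error 0.38, limma adjusted p = 6.99e-06) at D28.

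Ccl7, which lies beside Ccl2 on chromosome 10 and attracts monocytes as well, followed the same course at a lower level. Its in vivo values ran from 0 to 1.04 FPKM with a median of 0.385. It stood at 11.5, 9.51 and 7.08 FPKM at D6, and at 13.4, 4.80 and 5.99 FPKM at D28. The groups did not overlap, and the differences from 8.5 dpp were 2.63 at D6 and 2.34 at D28 on the log2 scale (standard error 0.35, limma adjusted p of 4.85e-05 and 8.01e-05). Ccl2 and Ccl7 are similar in sequence, and reads of 50 bases may be shared between them where they match.

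Cxcl1, a neutrophil attractant that binds Cxcr2, ranged from 0 to 0.410 FPKM in vivo. In explants it stood at 9.10, 8.88 and 4.92 FPKM at D6, at 11.1, 4.60 and 4.52 at D16, at 13.0, 5.22 and 10.4 at D22, and at 7.11, 4.63 and 3.75 at D28. Libraries of the same culture time varied widely, yet the lowest was still far above every testis. The difference from 8.5 dpp was 2.69 at D6 and 2.21 at D28 (standard error 0.35, limma adjusted p of 4.00e-05 and 0.000131). Cxcl2, its neighbour and close relative, is listed at 0 in all 17 in vivo libraries and at 0 to 0.290 FPKM in culture, with 9 of 12 culture libraries above 0. It never reached the minimum of 0.5 FPKM and was not tested.

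Ccl3, a ligand of Ccr1 made mainly by activated macrophages, was the least abundant of the members that rose. It is listed at 0 in 12 of 17 in vivo libraries, with a highest value of 0.380 FPKM. At D6 it stood at 1.08, 0.696 and 1.28 FPKM, at D16 at 1.85, 1.31 and 1.88, at D22 at 2.45, 1.09 and 2.14, and at D28 at 2.02, 0.746 and 0.898. Culture and in vivo libraries were separate at each time. The difference from 8.5 dpp was 0.88 at D6 and 1.37 at D22 (standard error 0.22, limma adjusted p of 0.00479 and 0.000120). Genes that every cell uses, such as Ppia and Hprt1, are also listed at 0 in all 29 libraries, so a value of 0 is given here only as listed, and no fold was computed against a group at 0.

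Cxcl10, an interferon-inducible ligand of Cxcr3, differed from the others in its time course. In vivo it ranged from 0.246 to 3.37 FPKM, with 2.57, 2.09 and 1.71 FPKM at 8.5 dpp. At D6 it reached 47.8, 31.4 and 39.8 FPKM, the highest mean level of any member at that time. At D16 it was back to 11.8, 7.20 and 7.99 FPKM, and it stayed at 12.1, 11.4 and 11.4 FPKM at D28. All culture libraries lay above all testes, and all D6 libraries above all later ones. The mean fell 4.41-fold from D6 to D16, a log2 difference of -2.03 (standard error 0.18, limma adjusted p = 0.000107). It was the one member called in the culture course (F test adjusted p = 0.000151), in which 3.20% of the 11358 genes tested were called lower, and 6.71% in either direction.

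The promoters of the members were read for motifs of the factors named above and of AP-1. RefSeq promoters of the GRCr8 assembly were found for 7 of the 10 members, but not for Ccl2, Ccl3 and Ccl5. The 250 bases before the annotated start were searched on both strands for the κB consensus, for the core of the interferon-stimulated response element and for the AP-1 motif TGANTCA. Shown are 3 members that were low in vivo and high in culture, with a member that was already present in the young testis, Cx3cl1, for contrast. Cx3cl1 too stood above every testis in all culture libraries. Capitals mark the matches to any of the 3 motifs, and overlapping matches run together. The windows are chr10:67513845-67514094 on the plus strand (Ccl7), chr14:17479322-17479571 on the minus strand (Cxcl1), chr14:15988816-15989065 on the plus strand (Cxcl10) and chr19:10242821-10243070 on the minus strand (Cx3cl1), each written 5′ to 3′ on the strand of the gene.
Ccl7: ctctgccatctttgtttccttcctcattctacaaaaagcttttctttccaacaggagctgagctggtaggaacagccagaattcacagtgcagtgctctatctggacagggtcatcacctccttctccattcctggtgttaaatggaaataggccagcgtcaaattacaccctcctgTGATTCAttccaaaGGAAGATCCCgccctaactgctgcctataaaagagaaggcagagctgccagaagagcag
Cxcl1: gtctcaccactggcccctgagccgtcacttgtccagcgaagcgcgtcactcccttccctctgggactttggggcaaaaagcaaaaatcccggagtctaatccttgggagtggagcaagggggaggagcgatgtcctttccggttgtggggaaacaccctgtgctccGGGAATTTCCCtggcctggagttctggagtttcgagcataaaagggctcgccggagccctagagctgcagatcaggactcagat
Cxcl10: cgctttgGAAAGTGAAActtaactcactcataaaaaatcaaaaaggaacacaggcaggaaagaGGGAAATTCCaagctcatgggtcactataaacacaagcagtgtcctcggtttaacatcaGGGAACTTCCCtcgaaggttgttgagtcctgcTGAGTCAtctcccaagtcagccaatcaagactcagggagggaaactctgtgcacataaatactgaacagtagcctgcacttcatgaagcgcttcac
Cx3cl1: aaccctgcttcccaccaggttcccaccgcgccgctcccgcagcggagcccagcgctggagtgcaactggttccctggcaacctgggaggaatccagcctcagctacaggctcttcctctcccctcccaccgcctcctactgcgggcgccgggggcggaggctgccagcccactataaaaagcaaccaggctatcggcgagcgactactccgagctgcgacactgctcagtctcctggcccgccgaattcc

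A κB match was found 59 bases before the start of Ccl7 and 84 bases before that of Cxcl1, where matches on both strands overlap. Cxcl10 had κB matches at 187 and at 128 bases, with an AP-1 match at 96 and the interferon core at 243, and Ccl7 had an AP-1 match at 73. Cxcl2, which stayed near 0 here, also had a κB match, at 74 bases. None of the 3 motifs was in the windows of Cxcl12, Cxcl16 and Cx3cl1. Of all 33469 promoters in the table, 6.33% held a κB match, 3.41% the interferon core and 6.34% the AP-1 motif. A match describes the letters alone, and binding was not measured.

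Cx3cl1, whose product both tethers and attracts cells carrying Cx3cr1, was the most abundant member at 8.5 dpp, with 24.6, 25.1 and 19.4 FPKM. In vivo it fell to 12.3 and 6.61 FPKM at 14.5 dpp, to 3.17, 2.49 and 3.89 at 24.5 dpp, and to 1.60, 1.60 and 1.76 at 53.5 dpp. The fall from 8.5 to 53.5 dpp was 13.9-fold in the mean. In explants it stood at 31.6, 32.2 and 31.7 FPKM at D6, 27.2, 27.7 and 25.9 at D16, 38.1, 37.1 and 41.4 at D22, and 58.3, 47.3 and 45.8 at D28. The libraries of D16 all lay below those of D6, and the libraries of D22 and D28 all lay above both. Its difference from 8.5 dpp was 0.23 at D16 (standard error 0.11, limma adjusted p = 0.0846), 0.74 at D22 (adjusted p = 5.60e-05) and 1.10 at D28 (adjusted p = 1.49e-06). The ratio of medians at D28 was 1.92, just short of the 2-fold that a call also required. Over the culture times the F test gave an adjusted p of 0.000668, again with less than 2-fold between the lowest and the highest median.

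Cxcl12, the ligand of Cxcr4 and Ackr3, also fell in vivo, but in culture its mean was highest at D6, where that of Cx3cl1 was highest at D28. It stood at 15.1, 15.4 and 12.2 FPKM at 8.5 dpp, at 8.09 and 8.75 at 14.5 dpp, and at 1.03, 0.656 and 1.25 at 53.5 dpp, a 14.5-fold fall in the mean. Explants held 34.2, 28.9 and 21.3 FPKM at D6, 25.9, 15.5 and 16.3 at D16, 24.1, 19.5 and 19.9 at D22 and 26.0, 20.8 and 20.2 at D28. Every culture library was above every testis, but the lowest, 15.5 FPKM at D16, was barely above the highest testis, 15.4 FPKM at 8.5 dpp. The difference from 8.5 dpp was 0.92 at D6 (standard error 0.20, limma adjusted p = 0.00206), with a ratio of medians of 1.91, and 0.38 at D16 (adjusted p = 0.118).

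Cxcl16, a scavenger receptor and ligand of Cxcr6, changed least of the members tested against 8.5 dpp at D6, D16 and D22. At D28 its mean was 1.68 times that of 8.5 dpp, above the 1.57 times of Cxcl12. It stood at 8.97, 9.51 and 9.97 FPKM at 8.5 dpp, dipped to 5.71 and 4.43 at 14.5 dpp, and returned to 9.94, 10.7 and 11.3 at 30.5 dpp and 8.04, 7.20 and 9.53 at 53.5 dpp. In explants it was at between 10.05 and 12.5 FPKM at D6 and at 20.1, 13.2 and 14.4 at D28. Against 8.5 dpp the difference was 0.22 at D6 (standard error 0.15, limma adjusted p = 0.235) and 0.67 at D28 (adjusted p = 0.00155), under 2-fold at each time. Whereas D28 lay above each testis, D6 and D16 overlapped with 30.5 dpp.

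Ccl5, a ligand of Ccr1 and Ccr3 made by T cells among others, was the one member called lower in explants than in the young testis. It stood at 4.87, 3.63 and 3.16 FPKM at 8.5 dpp, at 4.55 and 4.16 at 14.5 dpp, and at 0.473, 1.62 and 1.07 at 53.5 dpp. In culture it was at 2.54, 1.59 and 2.11 FPKM at D6, 1.06, 0.895 and 1.46 at D16, 1.32, 1.21 and 1.04 at D22, and 2.02, 1.20 and 1.33 at D28. Each culture library was below each library of 8.5 and 14.5 dpp. The difference from 8.5 dpp was -0.66 at D6 (standard error 0.16, limma adjusted p = 0.00426; less than 2-fold) and -1.19 at D16 (adjusted p = 3.71e-05).

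The comparison of explants with the testis at dissection asks what changed from the starting tissue. A gene was called at a limma adjusted p of at most 0.05 and at least 2-fold between group medians. Of the 9 members tested, 5 were called higher at D6 (Ccl2, Ccl3, Ccl7, Cxcl1 and Cxcl10) and none lower, where 9.90% of the 11539 genes tested were higher and 6.23% lower. These 5 were also called higher, and Ccl5 lower, at D16 (12.4% of genes higher, 9.72% lower), at D22 (13.6% and 9.92%) and at D28 (13.6% and 10.5%). Cxcl12, Cxcl16 and Cx3cl1 were not called at any time against 8.5 dpp. By adjusted p alone, 8 members passed at D6, Cxcl12 and Cx3cl1 among those higher and Ccl5 lower. Of the 11539 genes tested, 5557 passed in the same way, 3193 higher and 2364 lower. Under quantile normalization the share of higher calls among all called genes at D6 fell from 61.4% to 50.7%, while the members called stayed at 5.

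The comparison with 14.5 dpp, the immature control, gave a different picture for the resident chemokines. At D28, 8 of 9 members tested were called higher and 1, Ccl5, lower, where 7.63% and 6.00% of 11517 genes were called higher and lower. The counts were the same at D22 (7.34% and 5.51% of genes), and 7 and 1 at D16 (6.56% and 5.35%), where Cxcl12 had a ratio of medians of 1.94. At D6, 8 were higher and 1 lower, with 5.57% and 2.37% of 11309 genes. Cx3cl1 at D28 differed by 2.35 (standard error 0.20, limma adjusted p = 4.50e-05) and Cxcl16 by 1.46 (standard error 0.19, limma adjusted p = 0.000351). As the values above show, both genes stood lower at 14.5 than at 8.5 dpp in every library. The median difference of the 9 members at D28 was 2.19, against -0.08 over all genes tested. As the members were chosen with earlier results of these data known, this contrast is not a test of chemokines as a group. At D6, leaving out either 14.5 dpp library or any D6 library took Ccl5 past the threshold (adjusted p from 0.0552 to 0.0858). Ccl3 was lost without either 14.5 dpp library or without D6 replicate 1 or 3 (0.0549 to 0.0755), and Cxcl16 without 14.5 dpp replicate 2 or D6 replicate 1 (0.0543 and 0.0590). Without 14.5 dpp replicate 1, which left 1 library at that age, Ccl3 at D28 differed by 0.99. Calls at D28 rest on the F test, so this contrast does not show whether the call was lost.

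**Figure D2:**
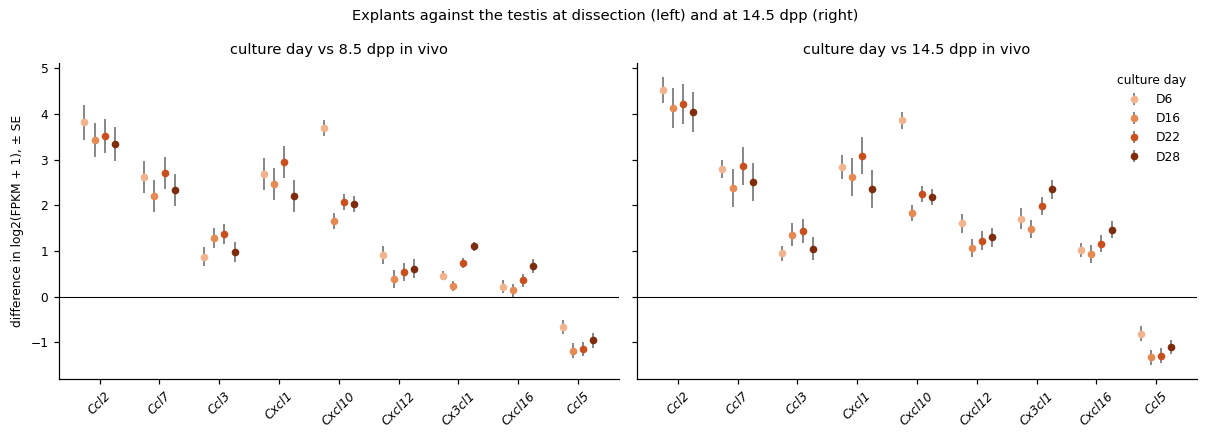
Difference in log2(FPKM + 1) between explants of each culture day and testes of 8.5 dpp (left) or 14.5 dpp (right) for the 9 members tested, with standard errors from the limma fit; darker points are later days. Cxcl12, Cxcl16 and Cx3cl1 lie between 0.14 and 1.10 on the left and higher on the right, whereas Ccl2, Ccl7, Cxcl1 and Cxcl10 are high in both panels.

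Explants were next set against testes of the same age since birth. At D16 against 24.5 dpp, 8 of 9 members were higher and Ccl5 was lower (25.3% of genes higher, 18.3% lower). At D22 against 30.5 dpp, 7 were higher and none lower, where 42.1% of genes were higher and 22.9% lower. At D28 against 36.5 dpp, again 7 were higher and none lower, with 46.7% and 23.6% of genes. Cxcl16 differed from 30.5 dpp by 0.21 (limma adjusted p = 0.178), and by -0.07 under quantile normalization. These comparisons are set against testes with other germ cells. The spermatid gene Tnp1 averaged 2482 FPKM in testes of 36.5 dpp, while every D28 library lists it at 0. Genes of earlier germ cells were not alike between D28 and 36.5 dpp. Ddx4 differed by -3.48 and Sycp3 by -3.74 (limma adjusted p of 1.06e-06 and 7.19e-06), whereas Dazl differed by -0.40 (limma adjusted p = 0.229). The median of all genes was shifted by 0.51 at D22 and 0.64 at D28. The median over the 9 members, chosen with earlier results known, was 2.65 at D22 and 2.60 at D28. At D28, Ccl2 differed by 4.31 (standard error 0.30, limma adjusted p = 5.87e-06), Cx3cl1 by 4.25 (standard error 0.16, limma adjusted p = 2.80e-07) and Cxcl12 by 3.08 (standard error 0.25, limma adjusted p = 1.23e-05). The call of Ccl5 at D16 was lost without D16 replicate 1 or 2 (adjusted p of 0.0537 and 0.0586).

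Over the in vivo course, 6 of the 7 members tested were called, all with a lower last than first median, where 59.2% of 12531 genes were called in that direction and 90.2% in either. The 6 were Ccl2, Ccl5, Cxcl10, Cxcl12, Cxcl16 and Cx3cl1. Between 8.5 and 53.5 dpp, Cx3cl1 fell by 3.17 (standard error 0.19, limma adjusted p = 5.29e-10), Cxcl12 by 2.95 (standard error 0.25, limma adjusted p = 2.60e-08) and Cxcl10 by 1.18 (standard error 0.26, limma adjusted p = 0.000577) on the log2 scale. The direction given for Cxcl16 depended on scaling, since its difference between 53.5 and 8.5 dpp was -0.19 as deposited, 0.54 under quantile normalization and 0.24 under upper quartile scaling. Over the same ages the summed FPKM of 6 germ cell markers went from a median of 28.1 to 15360 (at 53.5 dpp mostly Tnp1 and Prm1, with means of 9208 and 4881 FPKM, whereas Dazl and Sycp3 had their highest means at 24.5 dpp), that of 6 endothelial markers from 49.2 to 2.95 and that of 5 peritubular and stromal markers from 829.2 to 28.2. The part of these changes in the fall of Cx3cl1 and Cxcl12 was not tested.

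The course in culture was also tested against the course in vivo, as the change from D6 to D28 minus the change from 14.5 to 36.5 dpp, whose median over all genes was 0.63. Of 9 members tested, 2 had a positive difference at an adjusted p of at most 0.05 (Cx3cl1 and Cxcl12) and 1 a negative one (Cxcl10), where 50.9% and 25.5% of 12482 genes did. Cx3cl1 changed by 0.64 on the log2 scale in culture and by -1.91 in vivo.

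Of 19 chemokine receptors in the table (Ccr2, the receptor of Ccl2 and Ccl7, and Ackr1 were not analysed here), 8 were tested at D28 against 14.5 dpp, of which 2 were called higher (Cxcr4 and Cx3cr1) and 1 lower (Ccr1), where 7.63% of all genes tested were higher and 6.00% lower. Cxcr4, which signals for Cxcl12, stood at 10.2, 10.1 and 9.29 FPKM at 8.5 dpp, at 50.0, 48.7 and 53.0 at D6, and at 82.9, 44.3 and 55.0 at D28. All culture libraries lay above the highest in vivo value of 13.6 FPKM, and the difference from 8.5 dpp was 2.25 at D6 and 2.46 at D28 (standard error 0.20, limma adjusted p of 1.34e-06 and 2.57e-07). Ackr3, the scavenging receptor of Cxcl12, stood at 21.8, 21.9 and 25.0 FPKM at 8.5 dpp and at 49.3, 34.0 and 36.8 at D28, a difference of 0.76 (standard error 0.13, limma adjusted p = 0.000252) that fell short of 2-fold between medians. In vivo it fell to 2.13, 2.55 and 2.35 FPKM at 53.5 dpp.

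Cx3cr1, the receptor of Cx3cl1, was lower at 14.5 than at 8.5 dpp, as its ligand was, and higher at 30.5 dpp, where the ligand was lower still. It stood at 2.09, 2.16 and 1.79 FPKM at 8.5 dpp, at 0.953 and 0.404 at 14.5 dpp, and at 8.12, 8.61 and 6.32 at 30.5 dpp, an age at which Cx3cl1 was down to between 2.11 and 2.73 FPKM. In explants it stayed between 1.67 and 3.55 FPKM, near its level at 8.5 dpp (difference at D28 of 0.22, standard error 0.18, limma adjusted p = 0.292). Ccr1, which binds Ccl3, Ccl5 and Ccl7, was at 0.728 to 1.04 FPKM at 8.5 dpp and at 0.0365 to 0.309 FPKM in culture (difference at D28 of -0.63, standard error 0.08, limma adjusted p = 1.64e-05). Cxcr6, the receptor of Cxcl16, did not exceed 0.417 FPKM in any library, Cxcr3, the receptor of Cxcl10, did not exceed 0.323 FPKM, and Cxcr2, the receptor of Cxcl1 and Cxcl2, did not exceed 0.0873 FPKM. Cxcr2 and Ccr3 are listed at 0 in all 12 culture libraries.

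**Figure D3:**
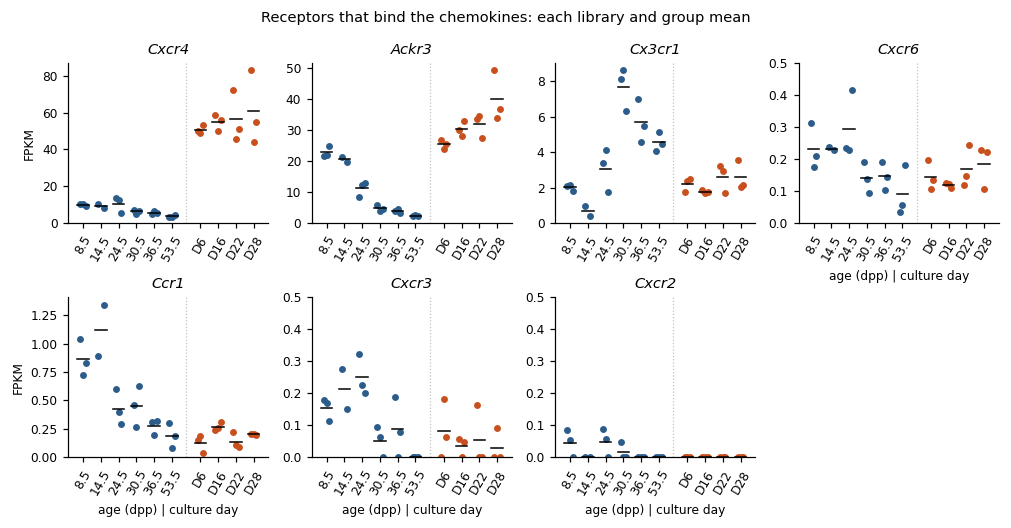
FPKM (linear axis from 0) of 7 receptors that bind members, in every library by age (blue) or culture day (orange), with group means as bars. Cxcr4 is above 44 FPKM in all explants and at most 13.6 in vivo, whereas Ccr1, Cxcr3, Cxcr6 and Cxcr2 stay under 1.4 FPKM throughout.

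Chemokine genes lie in clusters, and the neighbours of the members were compared with them. Ccl2, Ccl7, Ccl11 and Ccl12 follow each other on chromosome 10 in the RefSeq annotation. Ccl11, an eosinophil attractant, rose from 0.881, 1.89 and 1.92 FPKM at 8.5 dpp to 15.1, 12.3 and 13.4 at D6 and 50.5, 27.3 and 26.9 at D28 (difference at D28 of 3.78, standard error 0.31, limma adjusted p = 3.49e-07). Ccl12, a further Ccr2 ligand, is listed at 0 in 16 of 17 testes and stood at 2.48 to 13.2 FPKM in culture. All 4 genes of this cluster were thus higher in every explant than in every testis, as were 4.97% of 12762 genes. Whether reads were shared among the 4 genes was not tested. On the same chromosome, Ccl5, Ccl9, Ccl6, Ccl3 and Ccl4 are neighbours, but only Ccl3 of these separated explants from testes, Ccl9 reached at most 0.954 FPKM, and Ccl4 and Ccl6 are listed at 0 in all libraries.

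On chromosome 14, Cxcl10 lies between Cxcl11 and Cxcl9, which bind the same receptor. Cxcl11 shared the peak of Cxcl10 at D6, with 3.91, 2.501 and 2.89 FPKM against 0.239, 0.191 and 0.317 at 8.5 dpp (difference 1.70, standard error 0.14, limma adjusted p = 8.65e-07), and was at 0.794, 0.456 and 0.715 at D16. Cxcl9 did not peak there. It stood at 6.35, 9.61 and 9.66 FPKM at D6, at 4.21, 4.28 and 4.69 at D16, and at 9.66 and 11.5 in the testis at 14.5 dpp.

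**Figure D4:**
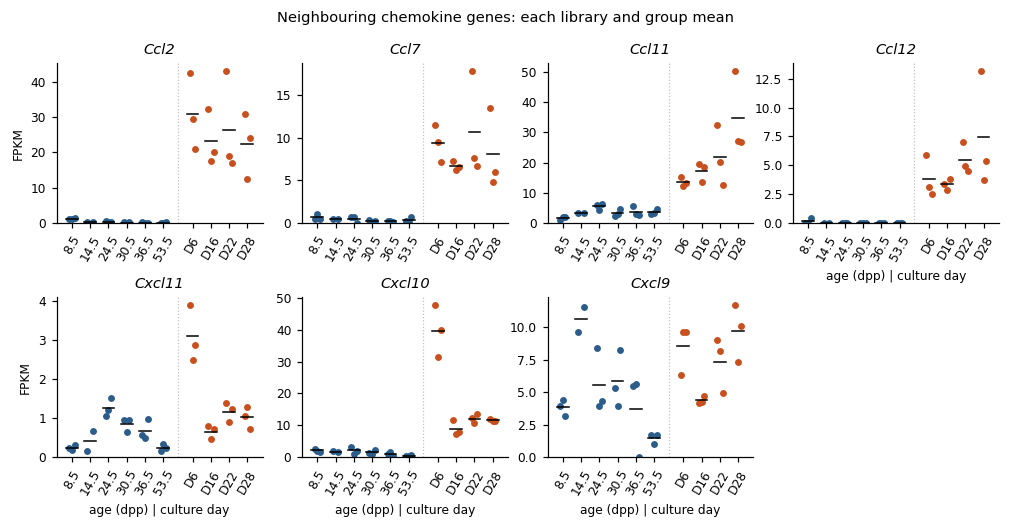
FPKM (linear axis from 0) in every library by age (blue) or culture day (orange), with group means as bars, for the neighbouring genes Ccl2, Ccl7, Ccl11 and Ccl12 (top) and Cxcl11, Cxcl10 and Cxcl9 (bottom). The top 4 genes are higher in every explant than in every testis; Cxcl10 and Cxcl11 peak at D6 and Cxcl9 overlaps between explants and testes.

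Of the 26 other chemokine ligands, 12 were tested at D28 against 14.5 dpp, and 3 were called higher (Ccl11, Ccl12 and Cxcl13) and none lower, beside the 7.63% and 6.00% given above. Cxcl13, which attracts B cells, stood at 2.26, 2.90 and 1.33 FPKM at 8.5 dpp, at 0.421 and 0.347 at 14.5 dpp, and at 8.02, 5.01 and 4.37 at D28. The median difference over the 12 was 0.47, against 2.19 over the members tested. The members were chosen with earlier results of these data known, so these medians cannot be compared as if both sets were chosen blind. Of 16 cytokines and transcription factors that induce chemokines, 12 were tested at D28 against 14.5 dpp. Of these, 3 were called higher (Irf7, Cebpd and Cebpb), where 7.63% of all genes were. Cebpb stood at 4.75 and 6.17 FPKM at 14.5 dpp and at 28.6, 11.6 and 14.4 at D28. Its D28 libraries overlapped with those of 8.5 dpp, the age of dissection, at 11.9, 14.4 and 6.85 FPKM. Tnf and Ifng are listed at 0 in all libraries, and Il6 is listed at 0 in all testes and at 0 to 1.14 FPKM in explants. Cebpd, a transcription factor of the acute phase response, went from 7.47, 7.88 and 7.35 FPKM at 8.5 dpp to 54.2, 47.5 and 37.7 at D6. Irf7, a factor of the interferon response, rose later, from 2.61, 2.20 and 2.56 FPKM at D6 to 11.5, 12.8 and 11.6 at D28, the opposite order to that of Cxcl10.

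Of 5 tested proteases known to process chemokines, 2 were called higher at D28 against 14.5 dpp, Mmp9 and Mmp2, where 7.63% of all genes were. Mmp9, a gelatinase that cleaves several chemokines, was below 2 FPKM in all testes and at 43.7, 40.6 and 54.6 FPKM at D6. Mmp2 averaged 52.1 FPKM at 8.5 dpp, 10.99 at 14.5 dpp and 40.4 at D28. The mean of Mmp2 at D28 was thus above that of 14.5 dpp but below that of 8.5 dpp, the age of dissection. Adam10 and Adam17, which release Cx3cl1 and Cxcl16 from the membrane, stood at 26.8 ± 5.52 and 20.9 ± 1.39 FPKM (SD, n = 3) at D28, and neither was called against 8.5 dpp (differences of 0.14 and -0.40, limma adjusted p of 0.430 and 0.000458).

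Markers of cells that make or follow chemokines moved too. The summed FPKM of 9 macrophage markers, without Aif1, was 80.7 to 101.1 at 8.5 dpp, 45.6 to 50.0 at 14.5 dpp and 26.8 to 35.5 at 36.5 dpp, and 101.6 to 192.6 over the culture groups. Aif1 was left out because it is high in older testes; with it, the sum was 125.4 to 140.0 at 36.5 dpp. Of 8 tested macrophage markers, 4 were called higher at D28 against 14.5 dpp (Cd68, Adgre1, C1qb and Lyz2), where 7.63% of all genes were. Cd163 is listed at 0 in all 12 culture libraries. The 9 T and NK cell markers summed to 2.34 to 2.96 FPKM at 8.5 dpp, to 10.6 to 18.5 at 14.5 dpp and to 11.5 to 30.1 FPKM in culture, of which Cd8a alone made up 8.67 to 25.0. Other T and NK cell markers did not follow Cd8a. From 14.5 dpp to D28 the mean of Nkg7 went from 6.41 to 0.465 FPKM and that of Cd2 from 1.16 to 0.480. Both were called lower, as were 6.00% of all genes, whereas Cd3e averaged 1.10 and 1.09 FPKM. Neutrophil markers summed to at most 2.31 FPKM anywhere, and S100a8 and Camp are listed at 0 throughout. The 6 endothelial markers summed to 47.4 to 50.9 FPKM at 8.5 dpp and to 47.9 to 86.4 in culture, the 5 peritubular and stromal markers to 804.4 to 873.9 and 316.6 to 575.4, the 6 Leydig markers to 230.2 to 330.1 and 12.7 to 36.8, and the 6 Sertoli markers to 626.8 to 703.0 and 932.9 to 3834. The Sertoli sum in culture was carried by Clu, with a mean of 167.9 FPKM at 8.5 dpp and 2999 at D28, whereas the means of Gata4 went from 260.8 to 183.7 and those of Amh from 95.2 to 38.2. Of the peritubular and stromal markers, Acta2, Myh11, Pdgfra and Col1a1 had lower means at D28 than at 8.5 dpp. Acta2 went from 300.6 to 43.8 FPKM, whereas Dcn stood at 213.6 and 215.4. The endothelial markers did not move alike from 8.5 dpp to D28. Means rose for Pecam1 (10.5 to 23.6 FPKM), Kdr (2.61 to 8.20) and Tek (0.993 to 1.40). They fell for Cdh5 (30.8 to 25.0), Emcn (3.68 to 0.654) and Vwf (0.524 to 0.481). The part of these cells in the chemokine levels was not tested.

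Within the culture times, 1 library often stood above the other 2. Replicate 1 held the highest value at all 4 times for Ccl2, Ccl7, Cxcl1 and Cxcl12, at 3 for Ccl5 and Cxcl10, at 2 for Ccl3 and Cxcl16 and at 1 for Cx3cl1. At D28, replicate 1 also had the highest macrophage sum, 192.6 against 123.9 and 135.5 FPKM, but at D16 it had 121.4 against 121.8 and 125.6. The labels do not say whether libraries of the same number share animals. Without replicate 1 at every culture time, the members called at D28 numbered 8 higher and 1 lower against 14.5 dpp. Against 8.5 dpp they numbered 5 higher and 1 lower. The D28 counts over all genes stayed within 1.5 times of those reported. At D6 against 14.5 dpp, 6 members were called higher and none lower. Over all genes, the calls there went from 630 higher and 268 lower to 332 and 74. As a description over the 12 culture libraries, which share their pools of explants by library, deviations from the mean of the day correlated at r = 0.88 between Ccl2 and Ccl7 and between Cxcl1 and Cxcl12, and at 0.21 between Ccl2 and Cx3cl1.

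**Figure D5:**
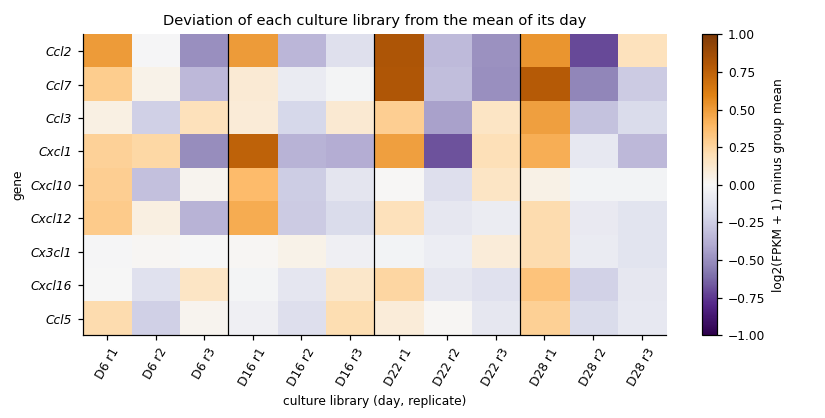
Deviation of log2(FPKM + 1) from the mean of the culture day, for 9 members (rows) in each of the 12 culture libraries (columns), orange above and purple below the mean. Replicate 1 is above the mean for Ccl2, Ccl7, Cxcl1 and Cxcl12 at all 4 times, while Cx3cl1 deviates little.

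The genes most like each member over the 29 libraries were found by Pearson correlation of log2(FPKM + 1), as a description, since all points share the contrast between culture and testis. For Ccl2 these were Aqp1, Dll4 and Ccl7 (r from 0.985 to 0.989), for Ccl7 they were Ccl2, Gbp5 and Cxcl1, and for Cxcl1 they were Ccl2, Ccl7 and Kcnj2. For Ccl3 they were Kcnj2, Flt4 and Mmp12, and for Cxcl10 they were Icam1, Scd and Adgrb1 (0.954 to 0.961). For Cxcl12 they were Zfp503, Tlr2 and Tnfrsf1a, and for Cx3cl1 they were Dnajc22, Tor4a and Ly6h (0.984 to 0.987). The least close were those of Cxcl16 (Fcgr3a at 0.881, Orai1 and Slc25a34) and of Ccl5 (Kifc1 at 0.850, Kif11 and Hmgb2l1).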

How the data were processed

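Testis RNA of 17 in vivo and 12 culture libraries was sequenced as stranded polyA libraries with reads of 50 bases. The authors aligned the reads with STAR 2.5.2a to the rn6 genome and deposited 1 table of FPKM values per gene and library, computed with StringTie 1.3.3 and Ballgown. The table has 30 libraries, of which 1 of 14.5 dpp, with all 17322 genes at 0, was left out. Genes were named through RefSeq by Entrez identifier (17172 matched).

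Values were tested as log2(FPKM + 1) with limma 3.58.1 in R 4.3.3. Genes with a median of 0.5 FPKM or more in at least 1 compared group were tested, and p-values were adjusted over all of them by the Benjamini-Hochberg method. Calls needed an adjusted p of at most 0.05 and a 2-fold ratio of group medians, apart from the test of culture against in vivo course, which used the adjusted p alone. D16, D22 and D28 were fitted with 14.5 dpp by F test, the culture times with 8.5 dpp in another fit, and D6 and each age-matched pair in fits of their own. Promoters and gene order were read from RefSeq (GRCr8). In simulated data, 183 to 190.5 of 200 genes shifted by 2 on the log2 scale were recovered on average in fits of 11170 to 11829 genes.

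The members and gene lists were chosen with earlier results of these data known. Named from the lists were the receptors of members and the 3 called genes with the most change at D28 against 14.5 dpp; Adam10, Adam17, Ccl9, Cxcl9, Cxcl11, Il6, Tnf, Ifng, Ccl4 and Ccl6 were named after their values were seen. Some receptors are not reported here by name. Per the study's methods, in vivo libraries of an age came from different testes and each culture library from several males; whether culture libraries of different times share males is not given in the sources used here. Alternatives were other pseudocounts, filters, scalings and groups in the fit, a mean-variance trend, adjusted p alone, a replicate block and leaving out each library. Leaving out replicate 1 at every culture time, and Aif1 from the macrophage sum, were added after seeing the data.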

Additional observations from a re-analysis of the deposited data

Results flagged for a closer look

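For 3 members the change from D6 to D28 in explants differed from the change from 14.5 to 36.5 dpp in vivo, by the limma interaction test. Cx3cl1 had a difference of 2.54 on the log2 scale (standard error 0.30, limma adjusted p = 2.37e-05), with a change of 0.64 in culture and of -1.91 in vivo. Cxcl12 had a difference of 1.48 (standard error 0.36, limma adjusted p = 0.00367), with changes of -0.30 and -1.78. Cxcl10 had a difference of -1.26 (standard error 0.30, limma adjusted p = 0.00328), with changes of -1.67 and -0.41. The median over all genes tested was 0.63, and 50.9% of them had a positive and 25.5% a negative difference past the threshold. With a pseudocount of 0.1, the difference of Cxcl10 was -1.03 (limma adjusted p = 0.0803).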

How the results depend on the processing

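The counts of members called stayed within 1.5 times of the reported count in 295 of 297 refits, and the counts over all genes in 282 of 297. With adjusted p alone, the members called rose to 8 at D6 against 8.5 dpp and to 2 in the culture course. The same setting called 3867, 3864 and 3864 genes at D16, D22 and D28 and 1755 at D6 against 14.5 dpp, 8445 at D16 against 24.5 dpp, 5557, 6701, 6866 and 6886 at D6 to D28 against 8.5 dpp, and 2385 in the culture course, because it has no fold threshold. At D6 against 14.5 dpp, 898 genes were called as reported, 376 with a replicate block and 406 without replicate 1 at every culture time. Leaving out 1 library there gave 406 (without D6 replicate 1) to 944. Whether library numbers pair the cultures is not stated; deviations of same-numbered culture libraries correlated at -0.12 to 0.24, over 0.1 in 5 of 18 pairs, so the numbers were not taken as pairs. With the replicate block, Ccl3, Ccl5 and Cxcl16 at D6 against 14.5 dpp had adjusted p-values of 0.0808, 0.0796 and 0.0577. Of 2408 fold changes of single members, 2359 kept direction and side of the threshold and 3 reversed, all of Cxcl16: -0.071 at D22 against 30.5 dpp with quantile normalization, and 0.54 with quantile normalization and 0.24 with upper quartile scaling at 53.5 against 8.5 dpp. The cause was not tested. Depth is unknown, which limits what can be said of members listed at 0.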

Other observations

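Chemokine ligands outside the members included a pair with the opposite pattern, named after their values were seen. Ccl26 is listed at 0 in all libraries up to 24.5 dpp and in all 12 culture libraries, and stood at 25.3, 45.1 and 42.0 FPKM at 30.5 dpp, at 131, 157 and 157 at 36.5 dpp, and at 81.5, 166 and 158 at 53.5 dpp. Ccl27 reached 13.6 FPKM in late testes and at most 0.472 FPKM in culture.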
